A study of Homo sapiens with 8 samples.

Results

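The 45 genes described here encode the machinery of cell division, from the loading of the replicative helicase to mitotic exit, and were followed in 8 RNA-seq libraries of LP-1 cells, an established human multiple myeloma line. They were chosen by gene symbol as replication, G1/S, G2/M and mitotic genes without the D-type cyclins, and all 45 were found among the 18564 genes of the deposited table. By role they were grouped as 10 genes of replication licensing and the replication fork, 3 of nucleotide supply, 10 G1/S regulators, 9 G2/M drivers, 7 genes of the spindle checkpoint and mitotic exit, 4 kinetochore and motor proteins and 2 general proliferation markers.

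Cells enter S phase when cyclin E and its kinase inactivate the retinoblastoma protein RB1 and release E2F transcription factors, which switch on the genes of DNA replication. Cyclins A and B with the kinase CDK1, freed by CDC25 phosphatases and joined by the polo and Aurora kinases, then drive mitosis, and the transcripts of this second wave peak in G2 and M. Normal plasma cells have left the cell cycle, so the joint level of these transcripts in myeloma cells is widely read as a measure of how many cells divide. A bulk RNA library averages over all phases, so fewer cells in a phase and less RNA per cell cannot be told apart.

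The libraries came from WT LP-1 cells and from bortezomib-resistant (BR) LP-1 cells, derived by 2 months of culture with the proteasome inhibitor bortezomib, each treated with DMSO vehicle or with the SRC-3 inhibitor SI-2 at 25 nM for 24 h. Each of these 4 conditions was represented by 2 libraries. Both lines were grown in the same medium, a single resistant line was compared with its parent, and nothing in the labels says that the libraries of a condition came from separate cultures, so p-values measure only the spread between these libraries. Each library held between 17997771 and 18570027 estimated read counts. Levels are given as CPM, read counts scaled to a common library size by TMM, which compares one gene between libraries, and as FPKM, which divides by gene length and is used where genes are compared with each other. In each list of 8 values the order is vehicle 1, vehicle 2, SI-2 1 and SI-2 2.

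Several libraries stood apart in ways their labels do not give. The second vehicle and second SI-2 libraries of the BR line were nearly alike, with a median variance over 11281 genes of 1.85 times the counting noise, and so were the second vehicle and second SI-2 libraries of the WT line, at 2.69 times. The other 26 pairs of libraries lay between 5.99 and 25.2 times. Results are therefore also given without the second SI-2 library of each line. The second BR SI-2 library also carried fibroblast transcripts, with COL1A1 at 9.84 FPKM, DCN at 3.74, COL1A2 at 1.56 and PDGFRB at 0.51. In the 7 other libraries the 4 genes summed to between 0.03 and 0.11 FPKM, against 15.7 FPKM (COL1A1 the most abundant) in this library. Its 4 epithelial markers (KRT8 the most abundant) summed to 6.66 FPKM, against 2.54 to 3.38 FPKM in the others, with EPCAM at 0.84 FPKM against at most 0.03 and CDH1 at 1.01 against 0.21 to 0.35. The part of these transcripts in the results was not tested. The labels call the cells B lymphoblasts, and plasma cell markers were at 7 of 8 above a median of 1 FPKM, with XBP1 the most abundant (366 to 596 FPKM) and SLAMF7 the exception (0.33 to 0.60 FPKM). The B cell markers PAX5, MS4A1 and CD22 reached at most 0.04 FPKM.

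The members were among the well-expressed genes of these cells. Their mean FPKM over the 8 libraries ran from 6.25 to 334, with a median of 56.7, and 44 of 45 lay above the median of the 13896 genes tested, 8.41 FPKM. They took between 1.04 and 1.32% of all estimated reads. The 3 highest were PCNA, the sliding clamp of the DNA polymerases, at 334 ± 62.0 FPKM (SD, n = 8 libraries), RRM2, the small subunit of ribonucleotide reductase, at 292 ± 103 FPKM, and CDKN2C, an inhibitor of CDK4 and CDK6, at 236 ± 68.5 FPKM. The 3 lowest were CDC25C, a phosphatase that activates CDK1, at 6.25 ± 1.04 FPKM, CENPE, a kinetochore motor, at 8.62 ± 2.55 FPKM, and KIF20A, a kinesin of cytokinesis, at 10.8 ± 2.6 FPKM. The SDs of PCNA and RRM2 overlap, as do those of RRM2 and CDKN2C, of CDC25C and CENPE and of CENPE and KIF20A. No difference is therefore claimed between these neighbours in the order, which were not compared library by library. Of the kinases that CDKN2C binds, CDK4 stood lower at 126 ± 14.2 FPKM, and CDK6 at 169.9 ± 17.7 FPKM was within its spread. RB1, the target of these kinases, was far lower at 17.7 ± 3.94 FPKM.

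**Figure D1:**
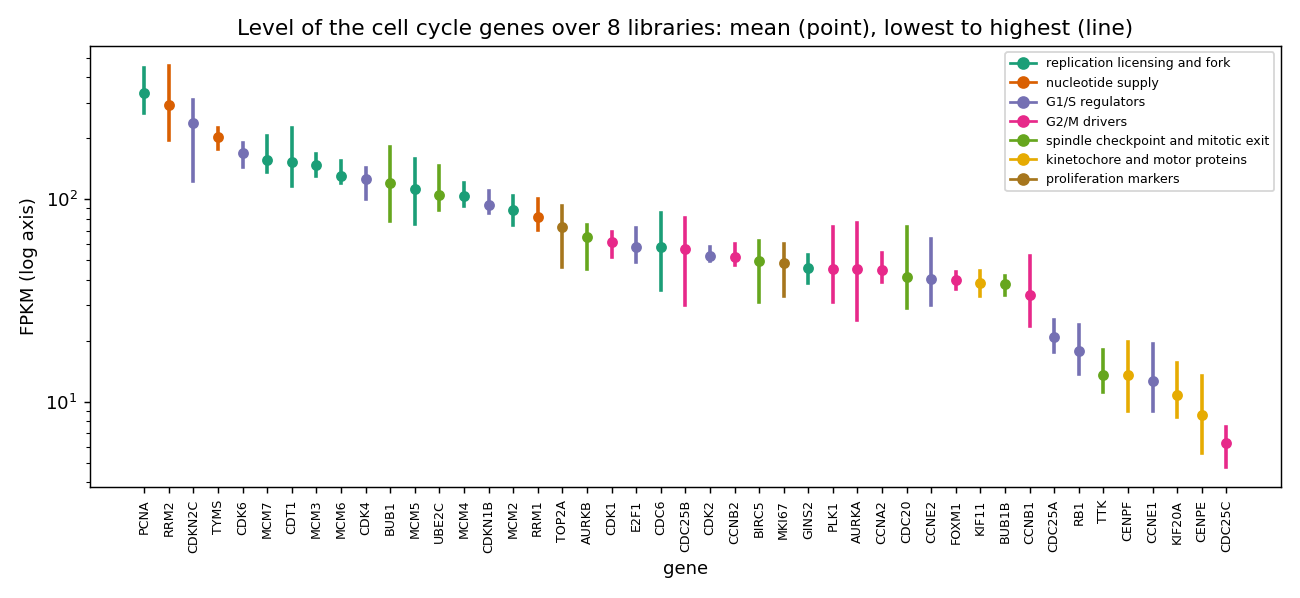
Level of each of the 45 genes in FPKM on a log axis, with the point at the mean of 8 libraries and the line from the lowest to the highest library; colours give the role. Replication and nucleotide genes occupy most of the upper places, PCNA at 334 FPKM first, and CDC25C at 6.25 FPKM is last.

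The genes differed in how far they moved between libraries. The highest library exceeded the lowest by at least 2-fold for 13 of the 45 genes, and the median ratio was 1.65, beside 1.58 for all genes tested. AURKA, a spindle pole kinase, had the widest range at 2.91-fold, followed by CDKN2C at 2.81-fold, CDC25B, a phosphatase that starts mitosis, at 2.72-fold and CDC20, an activator of the anaphase-promoting complex, at 2.70-fold. The kinase CDK2 had the narrowest range, 1.12-fold, with the mitotic transcription factor FOXM1 at 1.17-fold.

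Replication genes and mitotic genes of the 45 ordered the libraries differently. For each gene the log2 CPM of a library was taken relative to its mean over the 8 libraries, and the median over a role was used as a description. For the 20 genes of the 3 G2/M roles (drivers, checkpoint, kinetochore and motors) the first BR SI-2 library was the highest at 0.48, with 20 of 20 genes above their mean, and the first BR vehicle library followed at 0.27, with 19 of 20 above. The second BR vehicle and SI-2 libraries stood at -0.03 and -0.05. In WT cells the first vehicle and SI-2 libraries stood at -0.04 and 0.04, and the second at -0.36 and -0.18, with 0 and 1 of 20 genes above their mean. The second library of a condition was thus lower than the first for 17 of 20 genes under vehicle in each line, and for 15 of 20 in WT and 19 of 20 in BR cells under SI-2.

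For the 13 replication and nucleotide genes the order was another one. The first and second BR vehicle libraries stood at 0.15 and 0.14, the second BR SI-2 library at 0.09 and the first WT vehicle library at 0.05. The first BR SI-2 library, which was highest for the G2/M genes, was the lowest here at -0.13, with 0 of 13 genes above their mean. The remaining WT libraries lay between -0.10 and -0.08. Over genes outside the 45 the same values were 0.25 for 65 mitosis genes and -0.02 for 46 replication genes in the first BR SI-2 library, -0.26 and -0.13 in the second WT vehicle library, and -0.23 and -0.15 in the second WT SI-2 library. In these wider lists the second WT libraries were thus lowest for both, and the first BR SI-2 library was near its mean for replication. The median of all 13896 genes lay between -0.002 and 0.009 in every library.

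**Figure D2:**
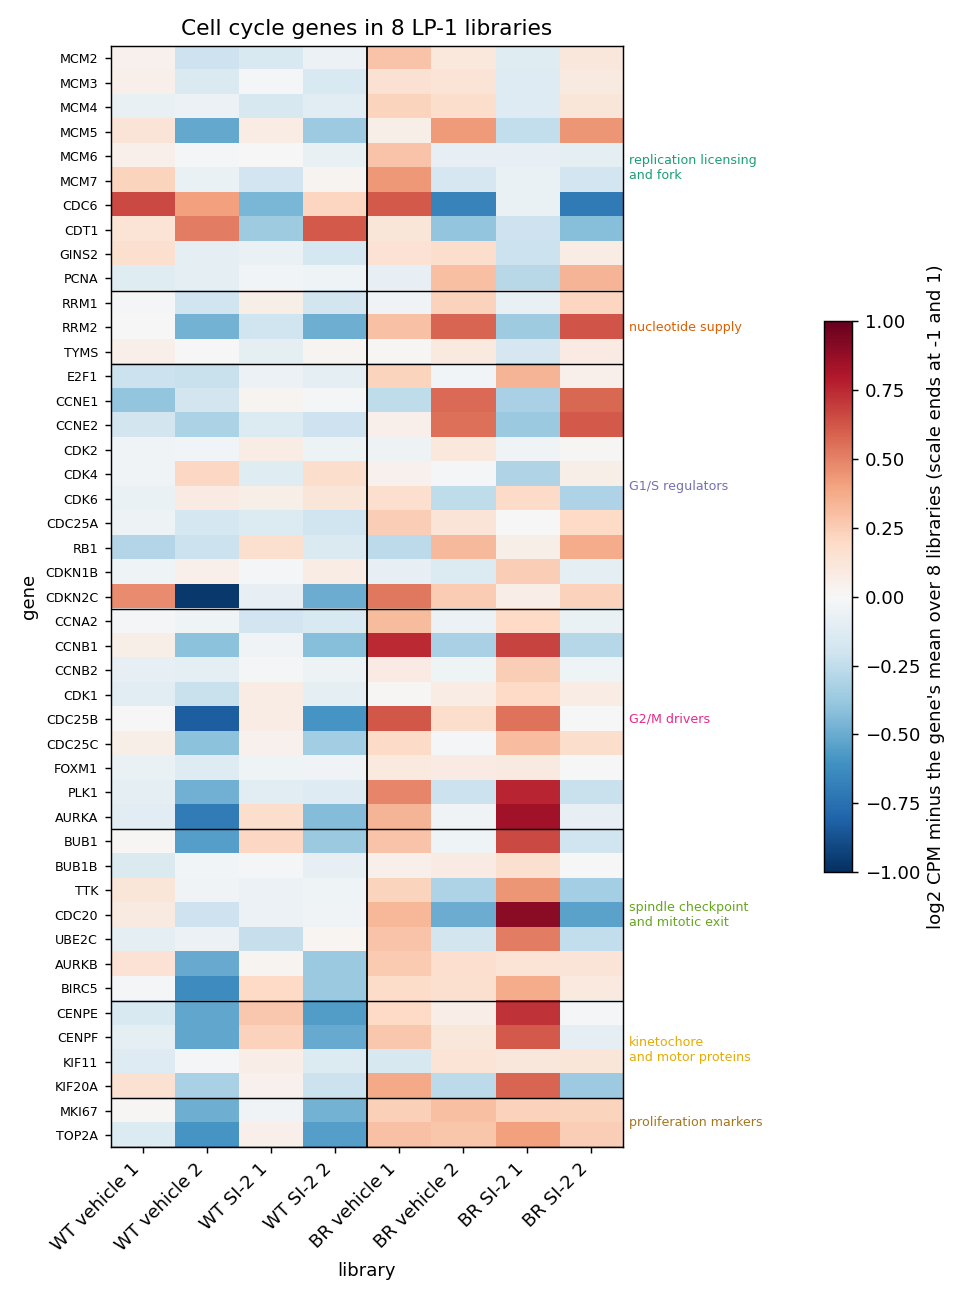
Heat map of the 45 genes (rows, by role) in the 8 libraries (columns, WT left and BR right of the line); colour gives log2 CPM minus the gene's mean over the 8 libraries. G2/M genes are red in the first BR vehicle library (all but KIF11) and the first BR SI-2 library, and MCM5, PCNA, RRM2, CCNE1 and CCNE2 are red in the second BR libraries.

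**Figure D3:**
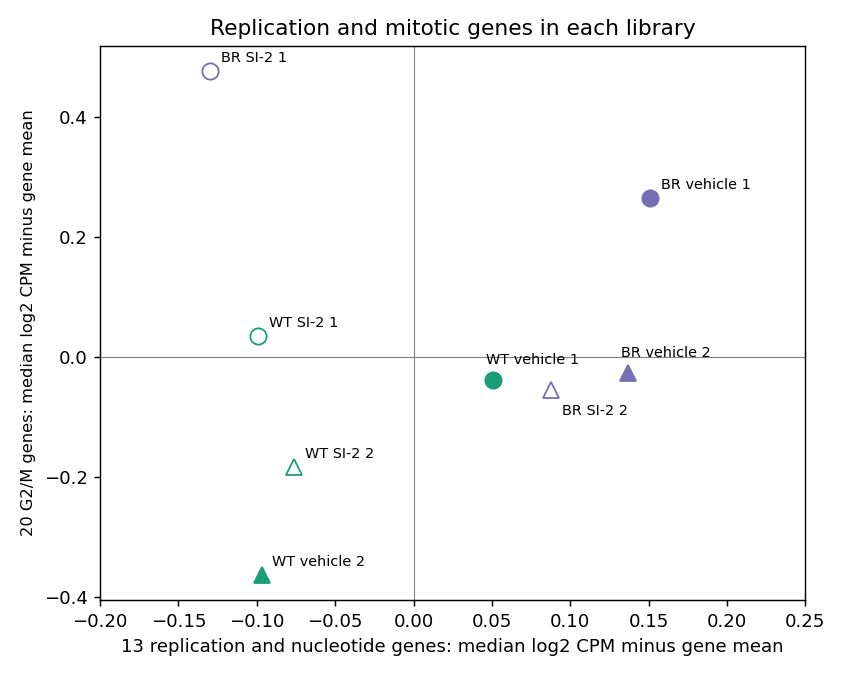
Median over 13 replication and nucleotide genes (x axis) against the median over 20 G2/M genes (y axis) in each library, both as log2 CPM minus the gene mean; green marks WT and purple BR, open symbols SI-2, circles the first and triangles the second library of a condition. The first BR SI-2 library lies at the upper left, at -0.13 and 0.48, and the second BR vehicle and SI-2 libraries lie close together on the right.

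Whether resistant cells carried more of these transcripts than WT cells was asked over all 8 libraries, 4 BR against 4 WT. Of the 45 genes 40 had a log2 fold change above 0, with a median of 0.21 (1.16-fold), beside 6876 of 13520 genes and a median of 0.004 for all genes tested. The higher side held 20 of 20 G2/M genes (median 0.27), 11 of 13 replication and nucleotide genes (median 0.13) and 7 of 10 G1/S regulators (median 0.27). Without the first BR SI-2 library the G2/M genes CDC20 and TTK fell below 0, at -0.125 and -0.114. None of the 45 passed the edgeR test at an adjusted p under 0.05, where 0.362% of all genes tested did, and the members' adjusted p-values ran from 0.12 to 0.954. At an unadjusted p under 0.05, 12 of 45 (26.7%) were higher in BR cells and 1 (2.22%) was lower, where 6.29% and 8.08% of all genes were. DESeq2 called 2 of the 45, TOP2A and MKI67, with 2.95% of all genes called, and limma on log2(FPKM + 1) called 0. An edgeR fit with replicate number as a block called 2, CDC25B and TOP2A, but the numbers were not taken as pairs (see the section on processing).

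For 6 of the 45 genes (13.3%) all 4 BR libraries lay above all 4 WT libraries, E2F1, CDC25A, FOXM1, BUB1B, MKI67 and TOP2A, and for 0 all 4 lay below, beside 3.78% and 4.36% of all genes. Without the second SI-2 library of each line the higher count was 7 of 45, the same 6 and CDC25B, with 5.44% of all genes, and without the second BR SI-2 library alone it was also these 7, with 4.56%. At an unadjusted p under 0.05 the count of genes higher in BR was 6 without both second SI-2 libraries (background 2.41%) and 14 without the second BR SI-2 library alone (background 4.22%), and no gene was lower in either. The higher count was also 6 without the second WT vehicle library (background 3.54%) and 6 without the second WT SI-2 library alone (background 3.95%). The median log2 fold change of the 45 was 0.20 without both second SI-2 libraries and 0.20 without the second BR SI-2 library alone.

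**Figure D4:**
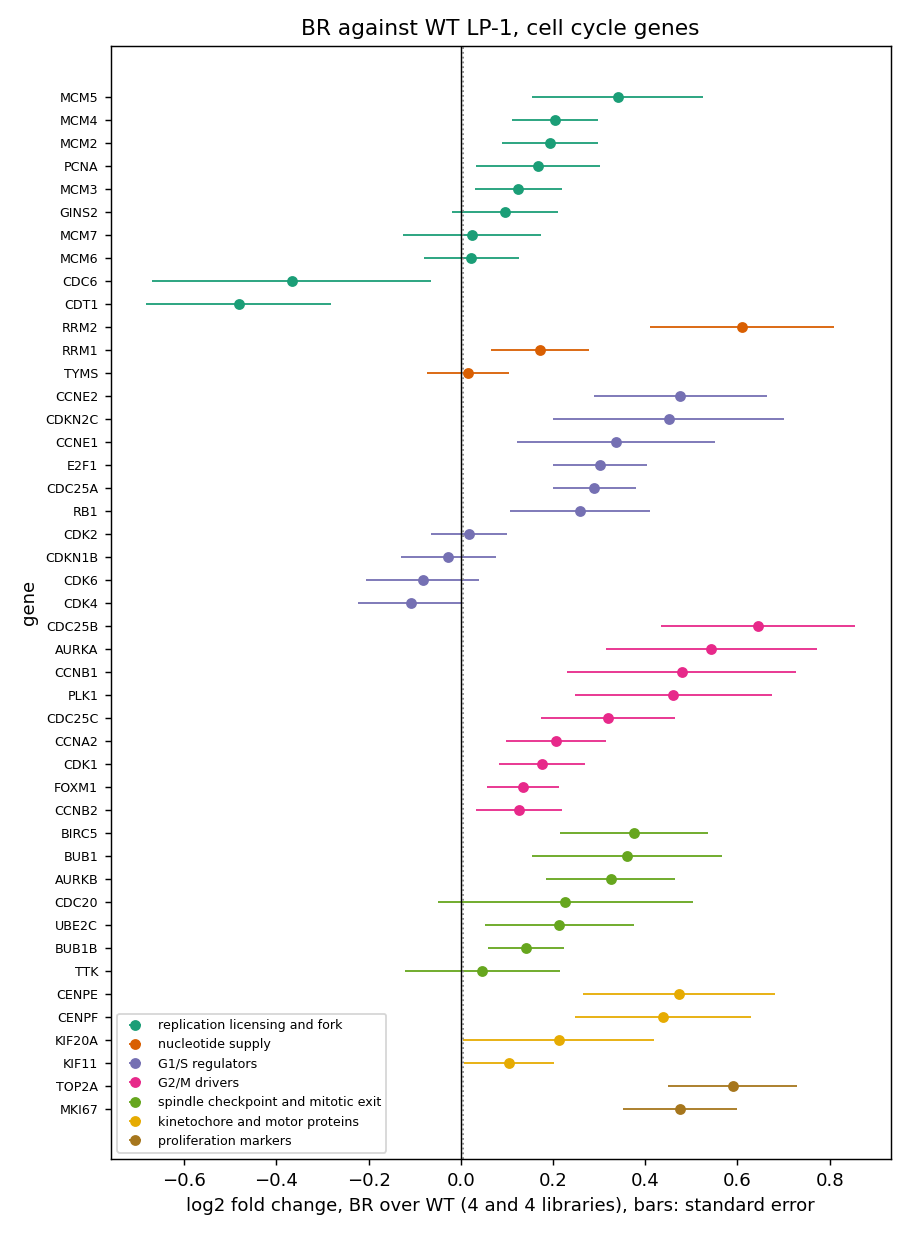
Log2 fold change of BR over WT, 4 against 4 libraries, for each of the 45 genes by role, with bars of 1 standard error from the edgeR fit; the dotted line is the median of all genes tested, 0.004. All 20 G2/M genes lie right of 0, and CDT1, CDC6, CDK4, CDK6 and CDKN1B lie left of it.

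The 2 proliferation markers differed most clearly. TOP2A, the topoisomerase that untangles replicated chromosomes, stood at 372, 272, 423 and 279.9 CPM in the WT libraries and 502, 497, 544 and 486 CPM in the BR libraries. MKI67, the Ki-67 protein that coats mitotic chromosomes, stood at 557, 396, 540.4 and 399.9 CPM in the WT libraries and 655, 681, 648 and 645 CPM in the BR libraries. In both genes the lowest BR library lay above the highest WT library, the second library of each WT condition was low, and the 4 BR libraries were close together. The log2 fold change was 0.59 (SE 0.14, adjusted p = 0.12) for TOP2A and 0.47 (SE 0.12, adjusted p = 0.148) for MKI67 by edgeR, with adjusted p-values of 0.00822 and 0.0236 by DESeq2. Without the second SI-2 library of each line the values were 0.53 with an adjusted p of 0.624 and 0.41 with an adjusted p of 0.743.

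**Figure D5:**
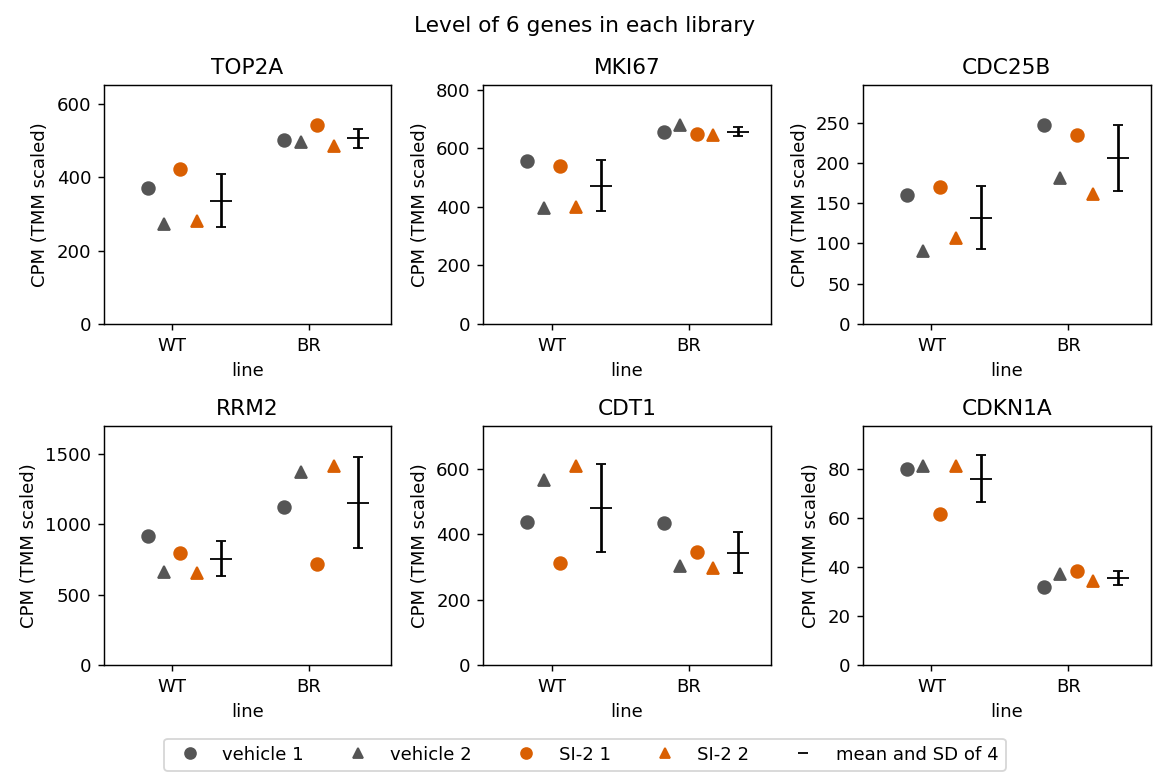
CPM of TOP2A, MKI67, CDC25B, RRM2, CDT1 and CDKN1A in each library by line; grey marks vehicle, orange SI-2, circles the first and triangles the second library, and the bar is the mean and SD of 4 libraries. TOP2A and MKI67 are higher and CDKN1A is lower in all 4 BR libraries, while RRM2 and CDT1 overlap.

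Sequence features that were not used to choose the genes were read from the RefSeq promoter table (GRCh38.p14, 250 bases before to 50 after the start, the first listed start of each gene). It held 36 of the 45 members and not AURKA, BIRC5, CCNE2, CDK2, FOXM1, MCM4, MCM5, TTK and UBE2C. Searched on both strands were E2F-type sites (TTTGGCGC, TTTCCCGC, TTTCGCGC or TTTGCCGC), the CHR element bound by the DREAM and MuvB complexes (TTTGAA or TTCGAA) and the CCAAT box of NF-Y. An E2F-type site was in 9 of 11 promoters of replication and nucleotide genes, 2 of 8 of G1/S regulators and 1 of 15 of G2/M genes, beside 3.33% of 27305 promoters in the table and 5.28% of the 11196 of genes tested here. A CHR element was in 8 of 15 G2/M promoters and 2 of 11 replication and nucleotide promoters, beside 16.6% of all and 11.7% of genes tested. A CCAAT box was in 24 of 36 member promoters, beside 35.7% of all and 36.8% of genes tested, and 2 or more boxes were in 17 of 36, beside 11.3% and 13.7%. A match describes these letters in this window and is not evidence of binding.

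The promoters of the 2 markers with the smallest p-values, of the cyclin CCNB2 and of the helicase subunit MCM6 are shown as examples of the 2 kinds. Each is the 250 bases before the start, 5′ to 3′ on the strand of the gene, with E2F-type sites, CHR elements and CCAAT boxes in capitals. TOP2A lies at chr17:40417897-40418146 (minus strand), MKI67 at chr10:128126424-128126673 (minus strand), CCNB2 at chr15:59104896-59105145 (plus strand) and MCM6 at chr2:135876444-135876693 (minus strand).
TOP2A: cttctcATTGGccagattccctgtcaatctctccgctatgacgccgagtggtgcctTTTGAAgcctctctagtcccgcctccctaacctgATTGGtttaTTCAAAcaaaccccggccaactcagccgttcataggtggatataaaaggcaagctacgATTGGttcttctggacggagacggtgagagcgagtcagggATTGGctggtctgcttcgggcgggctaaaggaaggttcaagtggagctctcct
MKI67: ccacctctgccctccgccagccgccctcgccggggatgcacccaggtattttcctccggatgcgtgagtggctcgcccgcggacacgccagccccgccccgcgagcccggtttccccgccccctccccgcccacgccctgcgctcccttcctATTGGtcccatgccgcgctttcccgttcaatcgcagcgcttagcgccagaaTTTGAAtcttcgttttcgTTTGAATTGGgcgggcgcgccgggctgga
CCNB2: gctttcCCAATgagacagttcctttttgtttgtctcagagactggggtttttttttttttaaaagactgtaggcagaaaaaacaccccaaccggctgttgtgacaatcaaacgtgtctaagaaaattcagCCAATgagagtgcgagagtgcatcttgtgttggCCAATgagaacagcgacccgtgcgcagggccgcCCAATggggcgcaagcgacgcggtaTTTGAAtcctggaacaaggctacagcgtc
MCM6: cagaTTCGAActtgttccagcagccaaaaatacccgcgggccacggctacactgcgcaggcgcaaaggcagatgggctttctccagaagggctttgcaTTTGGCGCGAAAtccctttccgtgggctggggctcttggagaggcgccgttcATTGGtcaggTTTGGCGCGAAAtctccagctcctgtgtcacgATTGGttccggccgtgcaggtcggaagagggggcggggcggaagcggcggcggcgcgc
TOP2A holds 4 CCAAT boxes and 2 CHR elements, MKI67 2 and 2, and CCNB2 4 and 1, with no E2F-type site in these 3. In MKI67 the second CHR element and the last CCAAT box share a base. MCM6 holds 2 copies of an element in which E2F-type matches on both strands overlap, together with 2 CCAAT boxes and 1 CHR element. TOP2A and MKI67 did not overlap between BR and WT libraries, and CCNB2 and MCM6 had log2 fold changes of 0.13 and 0.02.

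Among the G2/M drivers CDC25B had the largest and CCNB2, a B-type cyclin, the smallest difference. CDC25B stood at 160.4, 90.8, 169.6 and 107 CPM in the WT libraries and 247, 181, 235 and 162 CPM in the BR libraries, and its BR range touches the WT range only through the second BR SI-2 and first WT SI-2 libraries. AURKA stood at 92.2, 60.9, 112 and 73.4 CPM in the WT libraries and 125, 96.8, 177 and 93.6 CPM in the BR libraries, with the first BR SI-2 library far above the rest. The log2 fold changes were 0.65 (SE 0.21, adjusted p = 0.221) for CDC25B and 0.54 (SE 0.23, adjusted p = 0.321) for AURKA. With replicate number as a block CDC25B had an edgeR adjusted p of 0.0117. CCNB2 was nearly level at 74.9, 74.3, 78.3 and 76.3 CPM in the WT libraries and 83.9, 76.7, 93.9 and 76.9 CPM in the BR libraries, and the log2 fold change was 0.13 (SE 0.09, adjusted p = 0.561). FOXM1, which switches on many G2/M genes, stood at 136, 130.1, 137 and 139 CPM in the WT libraries and 152, 150.2, 151 and 142 CPM in the BR libraries, so its groups did not overlap although the log2 fold change was only 0.14 (SE 0.08, adjusted p = 0.459). CDC25C, the lowest of the 45 by FPKM, stood at 12.3, 8.91, 12.2 and 9.29 CPM in the WT libraries and 13.6, 11.7, 14.7 and 13.4 CPM in the BR libraries, and the log2 fold change was 0.32 (SE 0.14, adjusted p = 0.349). The cyclin CCNB1 (0.48) and the polo kinase PLK1 (0.46) also had log2 fold changes above 0. Their first BR libraries were high, at 117 and 112 CPM for CCNB1 against 55.9 and 57.2 CPM in the second ones, while WT cells had 51.8 to 72.8 CPM. Without the first BR SI-2 library the log2 fold changes were 0.32 for AURKA and 0.25 for PLK1, and without the first BR vehicle library that of CCNB1 was 0.28.

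In the spindle checkpoint and mitotic exit group, BIRC5, the survivin subunit of the chromosomal passenger complex, had the highest and the checkpoint kinase TTK the lowest log2 fold change. BIRC5 stood at 124, 80.6, 143 and 96.3 CPM in the WT libraries and 141, 139, 161 and 134 CPM in the BR libraries, and its catalytic partner AURKB stood at 87.8, 56.1, 80.9 and 61.3 CPM in the WT libraries and 95.1, 89.1, 87.0 and 86.9 CPM in the BR libraries. In both the second WT libraries were the low ones, and 1 first WT library lay within the BR range, that of SI-2 for BIRC5 and that of vehicle for AURKB. The log2 fold changes were 0.38 (SE 0.16, adjusted p = 0.326) for BIRC5 and 0.33 (SE 0.14, adjusted p = 0.326) for AURKB. BUB1B, the checkpoint protein BubR1, stood at 130.2, 141, 142 and 136 CPM in the WT libraries and 149, 152, 161 and 143 CPM in the BR libraries, without overlap, and its log2 fold change was 0.14 (SE 0.08, adjusted p = 0.458). TTK stood at 44.2, 39.8, 39.1 and 39.5 CPM in the WT libraries and 47.6, 32.9, 55.4 and 32.2 CPM in the BR libraries, with the 2 first BR libraries above and the 2 second BR libraries below every WT library, and its log2 fold change was 0.05 (SE 0.17, adjusted p = 0.917). Without the first BR SI-2 library the log2 fold change of TTK was -0.11.

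Of the kinetochore and motor genes, CENPE stood at 62.5, 48.5, 83.7 and 47.3 CPM in the WT libraries and 80.1, 72.7, 115 and 68.6 CPM in the BR libraries. CENPF, a large kinetochore protein of G2 and M, stood at 123, 91.9, 154 and 92.6 CPM in the WT libraries and 159, 142, 201 and 123 CPM in the BR libraries. Both were highest in the first BR SI-2 library and lowest in the second WT libraries, and the first WT SI-2 library lay inside the BR range. The log2 fold changes were 0.47 (SE 0.21, adjusted p = 0.337) for CENPE and 0.44 (SE 0.19, adjusted p = 0.332) for CENPF, and leaving out the first BR SI-2 library brought CENPE to 0.29. KIF11, the motor that separates the spindle poles, was close to level at 181, 196, 207 and 179.9 CPM in the WT libraries and 176, 216, 214 and 214 CPM in the BR libraries, with a log2 fold change of 0.10 (SE 0.10, adjusted p = 0.643). KIF20A stood at 37.2, 26.8, 34.6 and 28.9 CPM in the WT libraries and 43.6, 28.0, 50.1 and 26.1 CPM in the BR libraries, again high in the first BR libraries only, and its log2 fold change was 0.21 (SE 0.21, adjusted p = 0.66), with 0.03 without the first BR SI-2 library.

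Among the 13 replication and nucleotide genes the median difference of 0.13 was below the 0.27 of the G2/M genes. Under vehicle alone the order was the same, at 0.185 and 0.227. Over both treatments, however, the order did not hold without the first BR SI-2 library. Without it the medians were 0.19 and 0.18, and the genes at an unadjusted p under 0.05 were MCM2, MCM4, MCM5, PCNA, RRM2, E2F1, CCNE1, CCNE2, CDC25A, CDC25B, MKI67 and TOP2A (background 6.06% higher and 7.7% lower). Of the 20 G2/M genes this is 1, a share near the background. The labels do not say what a library number marks, so libraries of the same number are only described side by side. The second BR and WT libraries differed by more in replication and nucleotide genes (median log2 difference 0.28 under vehicle and 0.22 under SI-2) than in G2/M genes (0.23 and 0.16). The first differed by less (0.04 and -0.09 against 0.24 and 0.42). MCM5, a subunit of the MCM replicative helicase, had the highest log2 fold change of the licensing group and stood at 306, 196, 295 and 218 CPM in the WT libraries and 292, 376, 236 and 380.5 CPM in the BR libraries. PCNA stood at 396, 402, 421 and 417 CPM in the WT libraries and 407, 529, 355 and 545 CPM in the BR libraries. In these 2 genes the second BR libraries were the high ones, and the first BR SI-2 library lay within the WT range for MCM5 and below it for PCNA. The log2 fold changes were 0.34 (SE 0.18, adjusted p = 0.431) for MCM5 and 0.17 (SE 0.13, adjusted p = 0.59) for PCNA, and those of the other MCM subunits ran from 0.02 (MCM6 and MCM7) to 0.20 (MCM4). The 2 loading factors of the helicase had log2 fold changes below 0. CDT1, which brings the MCM ring to origins, stood at 437, 567, 311 and 609 CPM in the WT libraries and 433, 303, 345 and 296 CPM in the BR libraries, high in both second WT libraries and low in the first WT SI-2 library, and its log2 fold change was -0.48 (SE 0.20, adjusted p = 0.315). CDC6, its partner in loading, stood at 262, 221, 121 and 193 CPM in the WT libraries and 254, 104, 158 and 102 CPM in the BR libraries, lowest in the 2 second BR libraries, with a log2 fold change of -0.37 (SE 0.30, adjusted p = 0.602). Without the second SI-2 library of each line the log2 fold changes of MCM5, PCNA, CDT1 and CDC6 were 0.18, 0.08, -0.28 and -0.23, and that of CDC6 ran from -0.72 (without the first BR vehicle library) to -0.21 (without the first WT vehicle library) with 1 library left out.

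Among the nucleotide supply genes RRM2 stood at 917, 660.4, 797 and 651 CPM in the WT libraries and 1121, 1368, 715 and 1413 CPM in the BR libraries. The 3 BR libraries other than the first SI-2 library were above all WT libraries, and that one library lay within the WT range. The log2 fold change was 0.61 (SE 0.20, adjusted p = 0.221), and 0.43 (adjusted p = 0.849) without the second SI-2 library of each line. TYMS, thymidylate synthase, was level at 327, 315, 295 and 321 CPM in the WT libraries and 319, 337, 281 and 334 CPM in the BR libraries, with a log2 fold change of 0.02 (SE 0.09, adjusted p = 0.951). RRM1, the large subunit of ribonucleotide reductase, lay between them at 0.17.

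The G1/S regulators were mixed. CCNE2, an E-type cyclin, had the highest log2 fold change and stood at 92.2, 84.0, 95.04 and 90.7 CPM in the WT libraries and 108, 153, 80.9 and 160.5 CPM in the BR libraries, with both second BR libraries high and the first BR SI-2 library below every WT library. E2F1, the activator of replication genes, stood at 135, 134, 150.3 and 147 CPM in the WT libraries and 183, 154, 198 and 163 CPM in the BR libraries, and CDC25A, a phosphatase that frees CDK2, stood at 70.5, 64.8, 66.3 and 63.5 CPM in the WT libraries and 86.7, 79.8, 73.2 and 84.0 CPM in the BR libraries, both without overlap between lines. The log2 fold changes were 0.48 (SE 0.19, adjusted p = 0.293) for CCNE2, 0.30 (SE 0.10, adjusted p = 0.234) for E2F1 and 0.29 (SE 0.09, adjusted p = 0.209) for CDC25A. CDK4 had the lowest, at 245, 289, 231 and 283 CPM in the WT libraries and 259, 248, 204 and 261 CPM in the BR libraries and a log2 fold change of -0.11 (SE 0.11, adjusted p = 0.678). Without the first BR SI-2 library CDK4 was at -0.03, and CDK6 (-0.17) and CDKN1B (-0.125) were lower. CDKN2C stood at 594, 219, 404 and 303 CPM in the WT libraries and 616, 511, 448 and 503 CPM in the BR libraries, with the lowest value in the second WT vehicle library, and its log2 fold change was 0.45 (SE 0.25, adjusted p = 0.437), with 0.26 without that library and 0.75 without the first WT vehicle library. CDK6 (-0.08), the inhibitor CDKN1B (-0.03) and CDK2 (0.02) had log2 fold changes within 0.1 of 0.

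A further 139 cell cycle genes outside the 45 were listed beside them, and all were in the table and tested. In BR against WT cells 110 of the 139 had a log2 fold change above 0, beside 6876 of 13520 genes, with medians of 0.24 for 65 mitosis genes, 0.14 for 46 replication genes and 0.14 for 28 genes of G1/S control. At an unadjusted p under 0.05, 34 were higher (24.5%) and 6 lower (4.32%), where 6.29% and 8.08% of all genes were, and 1 (0.719%) passed the adjusted test, where 0.362% of all genes did. That gene was CDKN1A, the CDK inhibitor p21, which stood at 79.8, 81.0, 61.4 and 81.0 CPM in the WT libraries and 31.9, 36.9, 38.2 and 34.3 CPM in the BR libraries. Every BR library lay below every WT library, and the gene fell by 1.10 on the log2 scale (SE 0.12, edgeR adjusted p = 0.00239). It stayed called in 17 of 18 alternative fits, and without the second SI-2 library of each line the log2 fold change was -1.05 with an adjusted p of 0.0529. Under vehicle alone its log2 fold change was -1.22 (SE 0.18, edgeR adjusted p = 0.136), with an adjusted p of 2.15e-05 by DESeq2, the 1 of 18 alternative fits that called it there.

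The other named genes of this list did not pass the adjusted test. CDKN1C, the related inhibitor p57, stood at 10.1, 15.9, 11.2 and 21.6 CPM in the WT libraries and 6.89, 7.96, 11.6 and 9.1 CPM in the BR libraries, and the log2 fold change was -0.72 (SE 0.25, adjusted p = 0.237). TUBB4B, a beta tubulin, and SMC2, a condensin subunit, had log2 fold changes of -0.30 (SE 0.12, adjusted p = 0.309) and -0.28 (SE 0.09, adjusted p = 0.222). On the higher side CDKN2A, the locus of the inhibitor p16, had a log2 fold change of 0.67 (SE 0.27, adjusted p = 0.294) and stood at 73.8, 29.6, 70.0 and 34.5 CPM in the WT libraries and 89.0, 74.1, 90.7 and 76.9 CPM in the BR libraries, low in both second WT libraries. CDCA2, a phosphatase-targeting protein of mitotic chromosomes, had 0.60 (SE 0.24, adjusted p = 0.298). CENPM, a centromere protein, had 0.54 (SE 0.20, adjusted p = 0.266), with both second BR libraries high at 85.2 and 83.5 CPM against 49.2 and 49.4 CPM in the first ones. TPX2, the activator of Aurora A on the spindle, stood at 174, 138, 174 and 135 CPM in the WT libraries and 245, 214, 237 and 205 CPM in the BR libraries, without overlap, and its log2 fold change was 0.54 (SE 0.12, adjusted p = 0.0893), with an adjusted p of 0.00202 by DESeq2.

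Under vehicle alone, 2 BR against 2 WT libraries, the picture rests on 4 libraries that are part of the comparison above and is not independent of it. A log2 fold change above 0 was found for 39 of 45 genes, with a median of 0.23 beside 0.001 for all genes tested. None passed the adjusted edgeR test (0.0% of all genes did, and DESeq2 called 0 of the 45), and the lowest adjusted p of the 45 was 0.967. At an unadjusted p under 0.05, 3 of 45 were higher (6.67%), CDC25B, MKI67 and TOP2A, and 0 lower, where 1.53% and 2.36% of all genes were. The log2 fold changes were 0.77 (SE 0.33), 0.49 (SE 0.20) and 0.63 (SE 0.22). The count depended on single libraries. Without the second WT vehicle library it was 0 (background 0.839% higher and 0.77% lower), without the second BR vehicle library 2 higher (CCNB1 and CDC25B; background 0.708%), and without the first BR vehicle library 3 higher (CCNE1, CCNE2 and RB1; background 2.46%) and 1 lower (CDC6; background 3.66%), with none of the 3 genes named above. Without the first WT vehicle library it was 7 higher (background 2.57%). Without both second SI-2 libraries, which share the estimate of the spread, 7 were higher (RRM2, CCNE2, CENPE and CENPF added) and 0 lower, where 1.57% and 2.65% of all genes were. The pair of BR libraries was above the pair of WT libraries for 20 of 45 genes (44.4%) and below for 2, CDT1 and CDKN1B, beside 15.6% and 17.6% of all genes. Between libraries of the same number, which were not taken as pairs, 36 of 45 genes were higher in the first BR vehicle library than in the first WT one. The median log2 difference was 0.19, and between the second libraries it was 0.28, with 34 of 45 genes higher.

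SI-2 was given to ask how inhibition of SRC-3 affects these cells. No member passed the adjusted edgeR test in BR cells, in WT cells or over both lines, where 0.0% of all genes did in each, and DESeq2 and limma on log2(FPKM + 1) called 0 of the 45 as well. At an unadjusted p under 0.05 the count was 0 of 45 in each of the 3 comparisons, where 1.2%, 0.533% and 2.22% of all genes were found. These counts include the second SI-2 libraries, each nearly alike to its vehicle library. Without both, with the lone SI-2 library of a line assumed to vary like the others, the count in BR cells was 3 higher (AURKA, CDC20 and CENPE) and 2 lower (RRM2 and CCNE2), beside 2.29% and 1.22% of all genes. In WT cells it was 1 higher (CENPE) and 1 lower (CDT1), beside 1.44% and 1.49%, and over both lines 3 higher (AURKA, BUB1 and CENPE) and 0 lower, beside 5.16% and 2.91%. With 1 vehicle library left out, CDKN2C was higher in WT cells without the first WT library (background 0.34%) and lower without the second (background 0.312%), and MCM7 and CDC6 were lower in BR cells without the second BR library (background 1.72%). Over both lines GINS2 and CDKN2C were lower without the second WT vehicle library (background 1.23%), MCM7 and CDC6 lower and RB1 higher without the second BR one (background 3.3% and 4.23%). With 1 second SI-2 library left out, CDT1 was lower in WT cells (background 1.35%), RRM2 and CCNE2 lower and CDC20 higher in BR cells (background 1.21% and 2.29%), and over both lines CDC6 and CDT1 lower without the WT one (background 3.1%) and RRM2 lower without the BR one (background 0.801%). No adjusted edgeR p of the 45 was under 0.05 in these fits. The median log2 fold change of the 45 was -0.03 in BR cells, 0.03 in WT cells and 0.005 over both lines. Over both lines 0 of 45 genes had all 4 SI-2 libraries above or below all 4 vehicle libraries, beside 0.666% and 0.777% of all genes.

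Within BR cells the 13 replication and nucleotide genes all had a log2 fold change below 0, with a median of -0.20, and 15 of 20 G2/M genes lay above 0, with a median of 0.10, beside 6902 above and 6994 below 0 of all genes. In the wider lists 34 of 46 replication genes outside the 45 lay below 0, with a median of -0.055, and 35 of 65 mitosis genes above 0, with 0.016. Both SI-2 libraries lay below both vehicle libraries for MCM3, MCM4, MCM6, GINS2, a subunit of the replicative helicase complex, CDKN2C, AURKB and MKI67, and above them for CDK1. These are 7 (15.6%) and 1 (2.22%) of 45, beside 11.2% and 10.7% of all genes. The difference was larger in the first pair of libraries. Between the first BR vehicle and SI-2 libraries 13 of 13 replication and nucleotide genes were lower with SI-2, with a median log2 difference of -0.35, and 15 of 20 G2/M genes were higher, with 0.20. Between the second pair, the nearly alike one, 9 of 13 were lower, with -0.02, and 4 of 20 higher, with -0.04. Without the first BR SI-2 library the G2/M median was -0.24, with 17 of 20 genes below 0, and without the second BR SI-2 library it was 0.30, with 18 of 20 above. Of the 13 replication and nucleotide genes only MCM2, MCM3, MCM4, MCM6 and GINS2 stayed below 0 with any 1 library left out. CDC6, RRM2 and PCNA then reached log2 fold changes of up to 0.299, 0.175 and 0.21.

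In WT cells 10 of 13 replication and nucleotide genes lay below 0 under SI-2, with a median of -0.06 on the log2 scale, and 14 of 20 G2/M genes above 0, with 0.04. Without both second SI-2 libraries the values were 8 of 13 below 0, with -0.08, and 16 of 20 above 0, with 0.15. Both SI-2 libraries lay below both vehicle libraries for MCM4, CDC6, CCNA2 and TTK (8.89%), and above for PCNA, E2F1, CCNE1, RB1, CCNB2, CDK1 and FOXM1 (15.6%), beside 12.3% and 10.9% of all genes. CDC6 had the lowest log2 fold change in both lines, -0.62 (SE 0.40) in WT and -0.46 (SE 0.40) in BR cells, and over both lines it was -0.55 (SE 0.28, edgeR adjusted p = 0.999). With 1 library left out it ran from -0.97 to 0.299 in BR cells and from -0.993 to -0.325 in WT cells. Without both second SI-2 libraries CDC6 was at -0.999 in WT and -0.18 in BR cells, where many of the 45 were then lower, down to RRM2 at -0.80. Its WT libraries stood at 262 and 221 CPM under vehicle and at 121 and 193 CPM under SI-2. Its BR libraries stood at 254 and 104 CPM under vehicle and at 158 and 102 CPM under SI-2. In the second BR pair the library labelled vehicle was about as low as the one labelled SI-2, and the reason was not tested.

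Whether SI-2 acted differently on the 2 lines was tested by an interaction term, and 0 of 45 genes passed it at an adjusted p under 0.05 (edgeR, background 0.0%; DESeq2 called 0) or at an unadjusted p under 0.05 (background 0.533%). The median interaction log2 fold change was -0.07 for the 45 and -0.006 for all genes tested. The ends of the range were CCNE1 at -0.30 (SE 0.46) and CDC20 at 0.38 (SE 0.59). Without both second SI-2 libraries 1 gene, RRM2, was lower at an unadjusted p under 0.05 (interaction log2 fold change -0.81, adjusted p = 1, background 0.399%), and without the second BR SI-2 library alone 1 gene, CCNE2, was (background 0.496%), and without the first WT vehicle library 1 gene, CDKN2C, was (background 0.194%). With all libraries the standard errors of CCNE1 and CDC20 exceeded their interaction fold changes. How large an interaction could be detected with 2 libraries in each condition was not simulated.

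Counting limits touch some of these genes. The estimated counts of 18 of the 45 genes were not whole, as happens where reads are divided between genes, among them RRM2, CDT1, CCNE2, AURKA and BIRC5. In the GENCODE 29 annotation 10 of 45 genes (MCM2, MCM7, GINS2, TYMS, CCNE2, CDK4, CCNA2, CDC25C, PLK1 and KIF20A) have an exon over an exon of a gene on the other strand, and no source used here says that the counting used strand, so such reads cannot be told apart. BUB1B also shares exons with a read-through gene. The deposited transcripts carry RefSeq identifiers, so overlaps in the annotation used for counting may differ from these.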

How the data were processed

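RNA from 8 LP-1 libraries was sequenced on a BGISEQ platform. The submitters' processing notes name BWA, Bowtie2, RSEM and hg19, without roles or versions. The deposited transcripts carry RefSeq identifiers, and the release of the annotation is not given in the sources used here. The authors deposited estimated counts and FPKM per gene and per transcript. Their 16 columns of condition averages and their tables of comparisons (fold changes and significance of each contrast) were not used.

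Estimated counts were rounded, filtered with filterByExpr and scaled by TMM. They were tested with the edgeR 4.0.16 quasi-likelihood F-test (R 4.3.3), in 1 fit of the 4 conditions (13896 genes) for comparisons within a line or under vehicle and for the interaction, and in fits of 4 against 4 libraries (13520 genes), with Benjamini-Hochberg adjustment over all genes. A gene was called at an adjusted p under 0.05. Each standard error is the absolute effect divided by the square root of its F value. Alternatives used DESeq2 1.42.0, limma 3.58.1, other scalings and filters, and fewer libraries; leaving out the second SI-2 library of each line was added after seeing the data. On simulated counts of the 4 against 4 comparison (13534 genes) edgeR called 99% of genes changed 2-fold, with 7.01% of its calls wrong, and on those of the vehicle comparison (13765 genes) 67%, with 4.02% wrong. The simulated libraries were independent, with the same spread for all genes, and the changed genes were drawn from those with higher counts. The nearly alike libraries and the other differences between libraries were not simulated, so these shares may not hold for these data. Smaller changes were not simulated.

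The genes, lists and tests were chosen with earlier results of these data known. Any of the 45 could be named. Values are given in full for the 3 highest and 3 lowest by FPKM, for the extremes of each role in BR against WT, and for genes at an unadjusted p under 0.05 or without overlap. Of the other cell cycle genes, the 4 highest and 4 lowest at an unadjusted p under 0.05 are named. A listed cell type marker is not reported here.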

Additional observations from a re-analysis of the deposited data

Results flagged for a closer look

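In 90 groups of 4 libraries (each of the 45 genes in each line), 7 had 1 library whose gap to the nearest other exceeded Dixon's critical value of 0.829 times the range, where chance gives about 4.5. In BR cells the first vehicle library was high for the helicase subunits MCM6 (605 CPM, others 463 to 469) and MCM7 (533 CPM, others 345 to 376) and low for KIF11 (176 CPM, others 214 to 216). The first BR SI-2 library was high for CDKN1B (282 CPM, others 216 to 223), and the second was low for FOXM1 (142 CPM, others 150.2 to 152). In WT cells the second vehicle library was low for PLK1 (71.6 CPM, others 91.0 to 93.5), and the first vehicle library was high for TTK (44.2 CPM, others 39.1 to 39.8).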

How the results depend on the processing

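In BR against WT with both treatments, 49 genes were called, and 399 with DESeq2, 19 with condition terms, 10 with both second SI-2 libraries left out, and 21 to 125 with 1 library left out (125 without the first WT SI-2 library, 86 without the first BR vehicle library, and 21, 24, 27, 29 and 32 without the second WT SI-2, second BR vehicle, second WT vehicle, first BR SI-2 and second BR SI-2 library). Under vehicle, where 0 were called, 1 was with the CPM filter, both second SI-2 libraries left out, limma on log2(FPKM + 1), only the libraries compared or upper-quartile scaling, 3 without a filter, 4 with limma on log2(FPKM + 0.1) and 28 with DESeq2. For SI-2, in place of 0, DESeq2 called 1 gene in each line and 1 in the interaction, both second SI-2 libraries left out gave 2 in WT cells and 1 in the interaction, and 1 library left out gave 0 to 67 in BR cells (67 without the first BR SI-2 library). Of the 45 genes, 0 were called in BR against WT, 2 with DESeq2 and 0 to 1 with 1 library left out (TOP2A without the first WT SI-2 library). Their median log2 fold change with 1 library left out ran from -0.067 to 0.134 for SI-2 in WT cells and from -0.169 to 0.047 for the interaction. The cause of these shifts was not tested. With 2 libraries per condition, small differences may be missed, and how often was not simulated.

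The replicate numbers were not taken as pairs, since the labels do not say what a number marks and the correlation of replicate deviations between conditions ran from -0.12 to 0.44 over all genes and from -0.24 to 0.79 over the 45, highest between vehicle and SI-2 of 1 line (0.65 in WT and 0.79 in BR cells). With the replicate block 155 genes were called in BR against WT with both treatments, 2 of the 45 among them (CDC25B, adjusted p = 0.0117, and TOP2A, adjusted p = 0.0279), and 1 gene under vehicle. At an unadjusted p under 0.05, 18 of the 45 were higher in place of 12, where 8.93% in place of 6.29% of all genes were.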

Other observations

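Of the 139 cell cycle genes outside the 45, 3 (2.16%) had an unadjusted p under 0.05 for SI-2 against vehicle over both lines, a share no higher than the 2.22% of all genes. E2F5, an E2F of the repressor group, had a log2 fold change of 0.35 (SE 0.13), and SPC24, a kinetochore subunit, and CENPU, a centromere protein, had -0.24 (SE 0.10) and -0.28 (SE 0.10). All 3 had an edgeR adjusted p of 0.999.

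The 45 genes had 158 transcripts in the deposited transcript table, and 12 genes had 1 only. For 23 genes the leading transcript held over 90% of the gene's estimated reads, for 14 it held 50 to 90% and for 8 less than 50%, and it was the same transcript in all 8 libraries for 34 genes. The leading transcript of TOP2A held 99.4% ± 1.01 (SD, n = 8), and that of MKI67 held 51.0% ± 7.33. The most variable share was that of CCNE1, 48.9% ± 15.6, from 19.4% in the first BR vehicle library to 70.0% in the first BR SI-2 library. These shares are estimates from reads that transcripts of a gene have in common.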
